A study of Mus musculus with 12 samples.

Results

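The skin disease score was compared with gene expression in the skin of 8 diseased mice of the 12 in the series. The 8 are all the mice labelled Merkel het CLE or CLE. For each gene, log2(value + 1) was related to the score with group as a term, so that the slope gives the log2 difference per score point between mice of the same group. The 4 littermates all have a score of 0 and were left out of the fit; their values are given beside some genes as a level. The assay was the mouse immunology panel of NanoString, where each transcript is bound by a barcoded probe and the barcodes are counted.

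The 4 Merkel het CLE mice were rtTA+ K5TGO+ and carried Atoh1flox/wt with K14Cre+. K14Cre acts in keratin 14 positive epithelium, and Atoh1 is a transcription factor that Merkel cells, the touch receptors of the epidermis, need in order to form; with 1 floxed copy the loss of these cells is partial by the sample labels. Merkel het CLE 1 and 2 are labelled TLR9 wt/wt, and 3 and 4 ko/ko. The 4 CLE mice were of the parental strain, rtTA+ K5TGO+ with Merkel cells kept, and all TLR9 ko/ko. The 4 littermates lacked rtTA, K5TGO or both. For TLR9, 1 is labelled ko/wt and 3 ko/ko, and 2 of them carried K14Cre. In order of replicate they are labelled Atoh1flox/flox K14Cre-, Atoh1wt/wt K14Cre-, Atoh1flox/wt K14Cre+ and Atoh1flox/flox K14Cre+. The series description instead names TLR9KO for every group and a loss of Merkel cells, and the sample labels were followed here. All mice were female and had received OT2 T cells, CD4 T cells specific for an ovalbumin peptide, kept for 10 days in Th2 culture. Skin was taken when disease first showed, at about 3 to 4 weeks, so the scores are those at onset and not a course over time. Each library is 1 mouse. The sources used here do not say how the score was assigned.

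In increasing order of score, Merkel het CLE 2, 3, 4 and 1 scored 2, 2, 2.5 and 3. CLE 2, 3, 1 and 4 scored 1, 1, 2.5 and 3. Values of a gene are given below in these 2 orders, so that in each group the first 2 values are the lower-scored mice and the last 2 the higher-scored ones. The scores averaged 2.38 ± 0.479 in Merkel het CLE and 1.88 ± 1.03 in CLE (SD, n = 4 each), so the CLE mice carry most of the range. Only CLE held mice of score 1 and only Merkel het CLE held mice of score 2. Merkel het CLE 1 and 2 share a title number, as do CLE 3 and 4, a number whose meaning the sources used here do not give.

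Cutaneous lupus is an inflammation of the skin in which interferons induce chemokines such as Cxcl9 and Cxcl10, which attract T cells, while damaged keratinocytes and neutrophils release alarmins such as S100a8 and S100a9. Th2 cells, the type transferred here, depend on the transcription factor Gata3 and make cytokines that draw in eosinophils and mast cells. In bulk skin RNA, fewer cells of a type and less RNA per cell cannot be told apart.

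No gene passed the test for a slope with the score: 0 of 451 tested genes (0%) had an adjusted p under 0.05 by limma with Benjamini-Hochberg adjustment, and the smallest adjusted p was 0.718. Without adjustment, 20 genes (4.43%) had a p under 0.05, 9 with a positive slope (2%) and 11 with a negative one (2.44%). The genes with the smallest unadjusted p were Ikzf2, Kit, Gata3 and Cd40. Their slopes are -0.97 ± 0.24, 0.83 ± 0.21, -0.78 ± 0.22 and 1.06 ± 0.30 log2 per point (SE, n = 8). The 95% interval of a slope, not adjusted for the number of genes, reached 0.71 log2 units to either side in the median gene. A difference of that size or less per point was thus generally not detectable with 8 mice. Larger slopes, such as those of Ikzf2 and Cd40, did not pass after adjustment either. The slopes had a median of 0.14 over all tested genes, and 283 of 451 (62.7%) were positive. After median centring of each library 176 (39.0%) were positive, and after quantile normalization 207 (45.9%), so signs of slopes near 0 depend on the scaling.

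Recovered barcode counts ran from 134994 in CLE 1 to 682046 in Merkel het CLE 1. The deposited values of CLE 1 had been multiplied by 5.56, which put its background threshold at 106 units, against 19.5 to 53.2 units in the other 7 libraries; genes of low value are thus not resolved there. Merkel het CLE 1 and 3 had the lowest positive control counts, at 410 and 405. Of 7 such lane measures, none had an exact permutation p for a slope with the score under 0.278 (score permuted within groups, two-sided, 144 arrangements, smallest possible p 0.00694). No gene of the Merkel cell list fixed for this work is on the panel, so the labelled partial loss could not be checked. Of the 13 epithelial and matrix genes tested, the mean log2(value + 1) ran from 10.4 to 10.8 in Merkel het CLE and from 10.4 to 10.98 in CLE. Itga6, an integrin of basal keratinocytes, read 4042 to 6325 units in Merkel het CLE and 2913 to 6552 units in CLE.

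Ikzf2 encodes Helios, a transcription factor of regulatory T cells and some epithelial and innate cells. It read 267, 255, 121 and 191 units in Merkel het CLE, and 699, 940, 284 and 184 units in CLE. In each group both higher-scored mice lay below both lower-scored mice. The slope of -0.97 ± 0.24 log2 per point had a 95% interval of -1.52 to -0.42, an unadjusted p of 0.00346 and a limma adjusted p of 0.718. Littermates read 749 to 898 units, within the range of the 2 CLE mice of score 1.

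Gata3 is the master transcription factor of Th2 cells and is also expressed in keratinocytes and hair follicles. Its values were 2170, 2011, 2148 and 1329 units in Merkel het CLE, and 5207, 6059, 1462 and 2366 units in CLE. The CLE mice of score 1 read more than any other diseased mouse, and Merkel het CLE 1, of score 3, read least of all 8. The slope was -0.78 ± 0.22 log2 per point (limma adjusted p 0.718). The littermates read 6061 to 6591 units, higher than the 8 diseased mice.

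Il6ra, Il12rb2 and Il18r1, chains of cytokine receptors, were among the 12 leading negative slopes. Il6ra, the ligand-binding chain of the interleukin 6 receptor, read 577, 657, 477 and 688 units in Merkel het CLE, with no order by score, and 2526, 3228, 1190 and 748 units in CLE, where the order was the reverse of the scores. Il12rb2, the signalling chain of the interleukin 12 receptor that marks Th1 cells, read 42.1, 16.3, 12.8 and 10.02 units in Merkel het CLE, and 220, 342, 22.2 and 82.4 units in CLE. The higher-scored mice lay below the lower-scored ones in both groups, but Il12rb2 was above background in only 1 of 4 Merkel het CLE and 3 of 4 CLE mice; littermates read 495 to 685 units. Its slope was -1.32 ± 0.42 log2 per point, and -2.06 without CLE 4. Il18r1, the interleukin 18 receptor, read 260, 253, 122 and 143 units in Merkel het CLE, and 518, 1102, 239 and 317 units in CLE, again without overlap in either group (slope -0.80 ± 0.27). Sigirr, an inhibitory receptor of the interleukin 1 and Toll-like receptor family, read 89.1, 79.0, 52.1 and 50.1 units in Merkel het CLE, and 163, 131, 100.1 and 54.5 units in CLE. It was the only tested gene at the smallest exact permutation p that the design allows, 0.00694 (two-sided, unadjusted), with a limma adjusted p of 0.718. A permutation p of that size comes from 1 of 144 arrangements, and 451 genes were tested. The value of Sigirr in CLE 1 lay under the threshold of that library, 106 units.

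The other leading negative slopes belonged to genes of lymphocytes and of other cells. Ccr4, the Th2 chemokine receptor, had a slope of -0.84 ± 0.25, but was above background in 1 of 4 Merkel het CLE and 0 of 4 CLE mice, so its values there lie near the noise. The tetraspanin Cd82 had a slope of -0.76 ± 0.28, which was -0.42 without CLE 3. Mbp, myelin basic protein, had a slope of -0.69 ± 0.24, and Cd7, a T and NK cell surface protein, one of -0.58 ± 0.23. Cd7 was not above background in all 8 diseased libraries. Bcl6, a transcriptional repressor of follicular T helper and germinal centre B cells, read 191, 196, 164 and 177 units in Merkel het CLE, and 318, 521, 200.2 and 209 units in CLE (slope -0.47 ± 0.22, and -0.29 without CLE 3). The probe NM_010381.2, not named by the reference table, had a slope of -1.53 ± 0.64, which was -0.72 without CLE 3. That mouse read 493 units, and the other 7 read 10.98 to 105 units. The value of CLE 1 lay under the threshold of that library, 106 units.

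Kit, the stem cell factor receptor of mast cells and melanocytes, had the smallest unadjusted p of the positive slopes. It read 37.2, 34.4, 63.1 and 43.6 units in Merkel het CLE, and 17.3, 16.8, 44.5 and 65.0 units in CLE. Both higher-scored mice lay above both lower-scored mice in each group, and the slope was 0.83 ± 0.21 log2 per point (limma adjusted p 0.718). Kit was above background in 4 of 4 Merkel het CLE mice but in only 1 of 4 CLE mice, and the value of CLE 1 lies under its threshold of 106 units. In CLE 2, 3 and 1 Kit even read less than the mean of the scaled negative controls, 27.5, 19.4 and 62.6 units. The place of CLE 1 above CLE 2 and 3 is thus not resolved. Fcer1a, the alpha chain of the IgE receptor and the other tested gene of the mast cell and basophil list, read 78.3, 264, 62.2 and 209 units in Merkel het CLE, and 168, 34.9, 239 and 215 units in CLE, with overlap in Merkel het CLE (slope 0.74 ± 0.48).

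Cd40, the costimulatory receptor of B cells, dendritic cells and macrophages, read 28.4, 61.0, 25.6 and 60.1 units in Merkel het CLE, and 29.6, 25.1, 100.1 and 151 units in CLE. The CLE mice kept the order of their scores, although only CLE 4 was above background, while in Merkel het CLE the lower-scored and higher-scored mice overlapped. Fn1, fibronectin of the extracellular matrix, read 1350, 1700, 1095 and 3062 units in Merkel het CLE, and 847, 479, 1284 and 1892 units in CLE (slope 0.77 ± 0.24). Runx1, a transcription factor of blood cells and hair follicles, read 723, 1028, 1018 and 2104 units in Merkel het CLE, and 476, 334, 506 and 1066 units in CLE (slope 0.68 ± 0.23, exact permutation p 0.0139, two-sided, unadjusted). For Fn1 and Runx1 the mouse of score 3 read highest in each group. Both genes were well measured, with all 8 libraries above background.

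Several of the remaining positive slopes belonged to genes of myeloid cells. Ctsc, the protease that activates granule serine proteases, had a slope of 0.90 ± 0.32 log2 per point. The inhibitory and the activating Fc receptors Fcgr2b and Fcgr4 had slopes of 1.12 ± 0.45 and 1.27 ± 0.52. Tlr1, which pairs with Tlr2 to detect bacterial lipopeptides, had one of 1.01 ± 0.41, but was not above background in all 8 diseased libraries. Fcgr2b read 712, 2975, 721 and 3714 units in Merkel het CLE, and 973, 311, 1701 and 2773 units in CLE; Merkel het CLE 3, of score 2, lay close to Merkel het CLE 1, of score 3. The monocyte attractant Ccl2 had a slope of 1.19 ± 0.52, which was 0.71 without CLE 3 and 1.80 without CLE 2. Ccl19, the ligand of Ccr7, had one of 0.85 ± 0.39. Pou2f2, a transcription factor of B cells, and Il2ra, the alpha chain of the interleukin 2 receptor, had slopes of 0.59 ± 0.26 and 0.69 ± 0.30. Both lay near background in CLE, with 1 of 4 and 2 of 4 mice above it, and the slope of Il2ra was 0.29 without CLE 3.

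**Figure D1:**
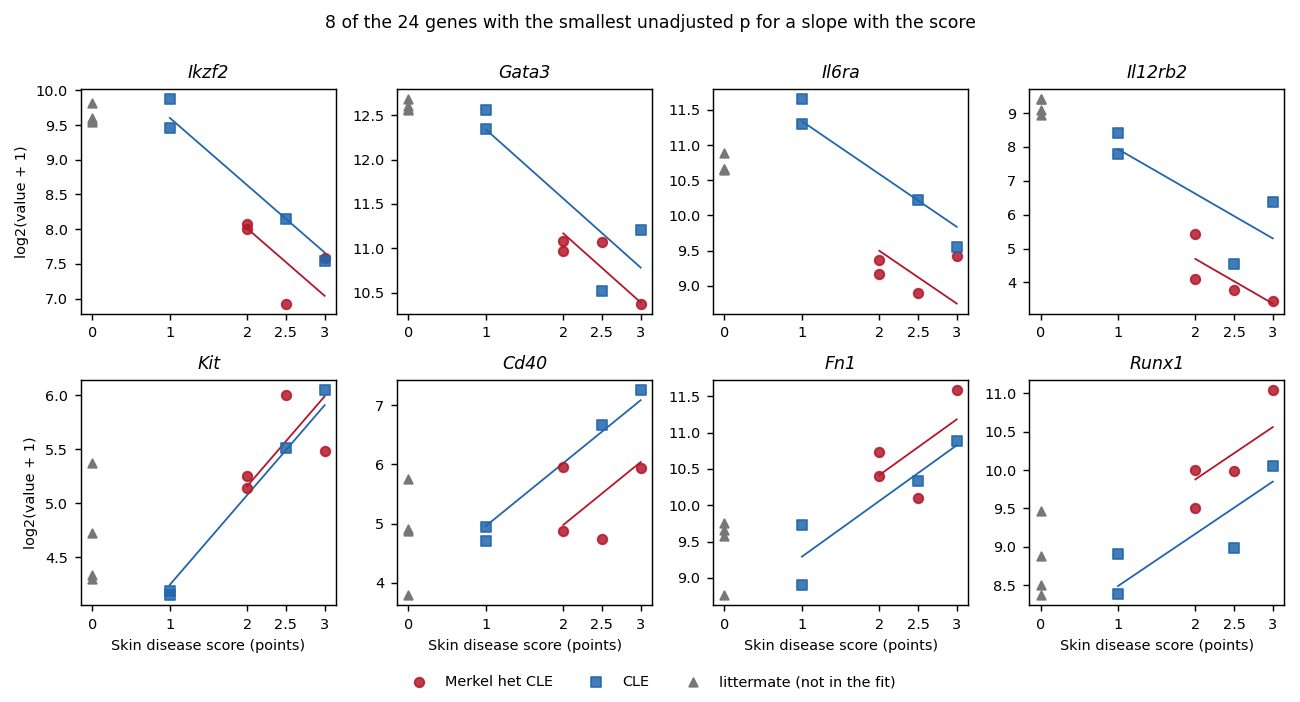
Log2(value + 1) of 4 genes with a negative slope (upper row) and 4 with a positive slope (lower row) against the skin disease score in points, 1 point per mouse. Lines show the common slope through each group's mean in Merkel het CLE (circles) and CLE (squares), and triangles show the littermates, which were not fitted. The 8 were taken from the 24 genes with the smallest unadjusted p. In Ikzf2, Il12rb2 and Kit the higher-scored mice are set apart from the lower-scored mice in both groups; in Il6ra and Cd40 mainly in CLE.

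The 2 lower-scored and the 2 higher-scored mice of each group can be compared without assuming a straight line. Kit was the only gene whose higher-scored mice lay above the lower-scored ones in both groups, 1 of 451 (0.222%). Its values in CLE 2, 3 and 1 lay under the scaled negative control means of those libraries, so its split in CLE is not resolved. In the opposite direction there were 10 genes (2.22%): Ikzf2, Il12rb2, Il18r1, Sigirr, Bcl6, Cd7, NM_010381.2, Ccl22, Bcap31 and Cd109, Bcap31 and Cd109 being picked out by this count alone. Ccl22, a ligand of Ccr4, read 74.4, 79.9, 26.5 and 47.9 units in Merkel het CLE, and 101, 86.6, 55.6 and 62.6 units in CLE. The values of Kit, Ccl22, Sigirr and Il12rb2 in CLE 1 lay under its threshold of 106 units. The groups also split in opposite directions: in 12 genes the higher-scored mice lay above the others in Merkel het CLE and below them in CLE (2.66%), and in 15 the reverse held (3.33%). Both shares are larger than the 2.22% of genes that lay below in both groups. The 15 include Cxcl9, Cxcl10, Klrk1, Lair1 and Gzma.

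The littermates, with a score of 0, were not in the fit of the slopes, but they counted towards the filter on background. Their level is therefore given only for the 434 genes above background in at least 4 of the 8 diseased mice. All 12 leading positive genes are among them, and the diseased mean lay above the littermate mean in 12 of 12, against 79.9% of the genes with a positive slope and 63.6% of the 434. Of the leading negative genes 11 are among them, all but Ccr4, and the diseased mean lay below the littermate mean in 10 of 11, against 65.8% of the genes with a negative slope and 36.4% of the 434. These counts are a description, since genes measured in the same mice are not independent. The leading genes were also picked by their slopes in the same diseased mice. The filter leaves out 17 tested genes that were seldom above background in diseased mice, which favours a diseased mean above the littermate mean. Over all 451 genes that share was 61.6%, and the leading genes gave 12 of 12 and 11 of 12.

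No member of any gene list passed the test. Of the 31 lists with at least 2 tested members, the neutrophil list had the highest median slope, 0.82 log2 per point, which is 0.68 above the median of all genes, with 6 of 6 slopes positive against 62.7% of all tested genes. The list of the receptors and ligands that attract monocytes had a median of 0.65 (12 of 14 positive), complement 0.65 (16 of 18), and macrophage and monocyte genes 0.64 (17 of 18). Dendritic and Langerhans cell genes had a median of 0.60 (8 of 9) and interferon-gamma induced genes one of 0.52 (13 of 14). These 6 medians stayed positive under reference gene scaling, median centring and quantile normalization. At the other end, Th2 genes had a median of -0.19 (4 of 15 positive) and epithelial and matrix genes one of -0.11 (3 of 13), and both stayed negative under the 3 scalings. Single CLE mice moved these medians: that of the epithelial and matrix genes was -0.035 without CLE 2 and -0.0093 without CLE 4 (5 of 13 positive in both), and that of the dendritic and Langerhans cell genes was 0.37 without CLE 1, 0.35 without CLE 3 (7 of 9) and 0.33 without CLE 4 (6 of 9). The median over all tested genes was -0.012 without CLE 3. Over the 31 lists the sign of the median depended on the scaling in 10.

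**Figure D2:**
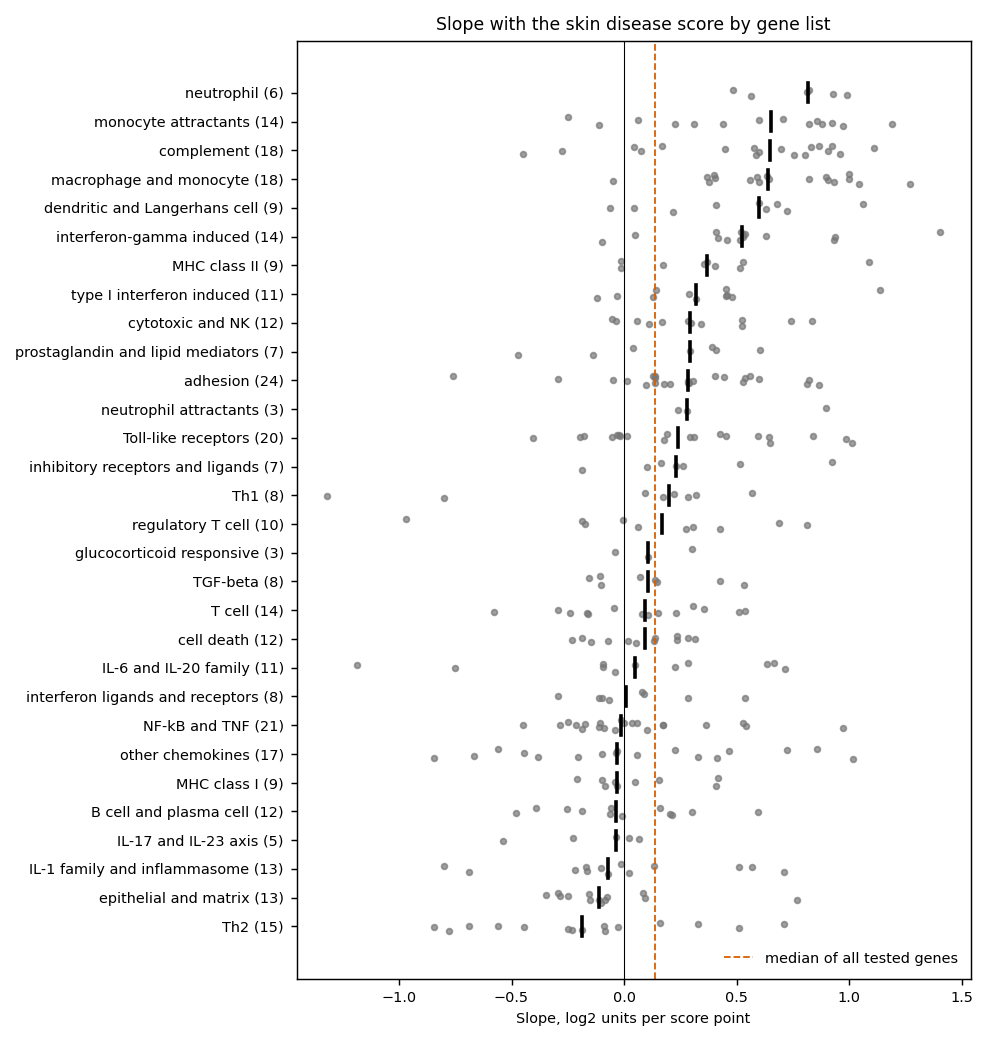
Slopes with the score of the tested members of each gene list with at least 3 such members, in log2 units per score point. Grey points are genes, black bars are list medians and the dashed line is the median of all tested genes, 0.14. Neutrophil genes lie highest and Th2 genes lowest, and most lists spread to both sides of the dashed line.

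The common median slope of the neutrophil list depended on single CLE mice. Within Merkel het CLE the list had a median slope of 0.87, and within CLE one of 0.83. Its mean level, as log2(value + 1) over 6 genes, was 8.41, 10.5, 8.89 and 10.4 in Merkel het CLE, and 9.01, 6.47, 12.1 and 7.50 in CLE. CLE 1, of score 2.5, was the highest of the 8 mice, while CLE 4, of score 3, was lower than every diseased mouse but CLE 3. The median slope of the list was 0.09 without CLE 1, 0.16 without CLE 3 and 1.98 without CLE 4, and 3 of 6 slopes were positive without CLE 1 or without CLE 3. The receptor for granulocyte colony-stimulating factor, Csf3r, read 117, 388, 198 and 606 units in Merkel het CLE, and 156, 30.7, 801 and 109 units in CLE (slope 0.99 ± 0.61). The myeloid lectin receptor Clec5a and the integrin chain Itgam had slopes of 0.93 ± 0.54 and 0.82 ± 0.57. Cxcl1, a neutrophil attractant made by keratinocytes, read 99.9, 310, 141 and 2399 units in Merkel het CLE, and 46.9, 36.3, 306 and 27.9 units in CLE, so that the highest value came from the Merkel het CLE mouse of score 3 and the lowest from the CLE mouse of score 3.

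Macrophage, complement and monocyte attractant genes had higher median slopes within CLE than within Merkel het CLE, a difference between lists that was not tested. The macrophage and monocyte list had a median slope of 0.17 within Merkel het CLE and 0.72 within CLE, the complement list -0.15 and 0.80, and the monocyte attractants -0.16 and 0.90. Macrophage genes with the smallest p, after Fcgr4, were Msr1, a scavenger receptor (slope 0.89 ± 0.43), Csf1r, the receptor for the macrophage growth factor (0.64 ± 0.32), and Cybb, the catalytic subunit of the phagocyte oxidase (0.91 ± 0.47). Complement C1qb, a chain of the first component, read 1079, 2898, 417 and 2296 units in Merkel het CLE, and 607, 528, 1223 and 3719 units in CLE (slope 0.96 ± 0.47). The 2 CLE mice of higher score lay above the 2 of lower score, while in Merkel het CLE the 2 pairs overlapped. Merkel het CLE 4, of score 2.5, had the lowest mean level of the 8 mice on the complement list (7.85) and the MHC class II list (8.14). On the macrophage list it had 7.20, and only CLE 3 was lower, at 6.52. Without CLE 3 the monocyte attractants had a median slope of -0.02 with 7 of 14 positive, and macrophage genes one of 0.49 with 14 of 18 positive. Without CLE 2 the macrophage median was 0.97. The chemokines Ccl12 and Ccl5 of the monocyte attractant list had slopes of 0.86 ± 0.40 and 0.97 ± 0.49. Of the complement list, C1ra and C1qa had slopes of 0.92 ± 0.45 and 0.87 ± 0.47.

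**Figure D3:**
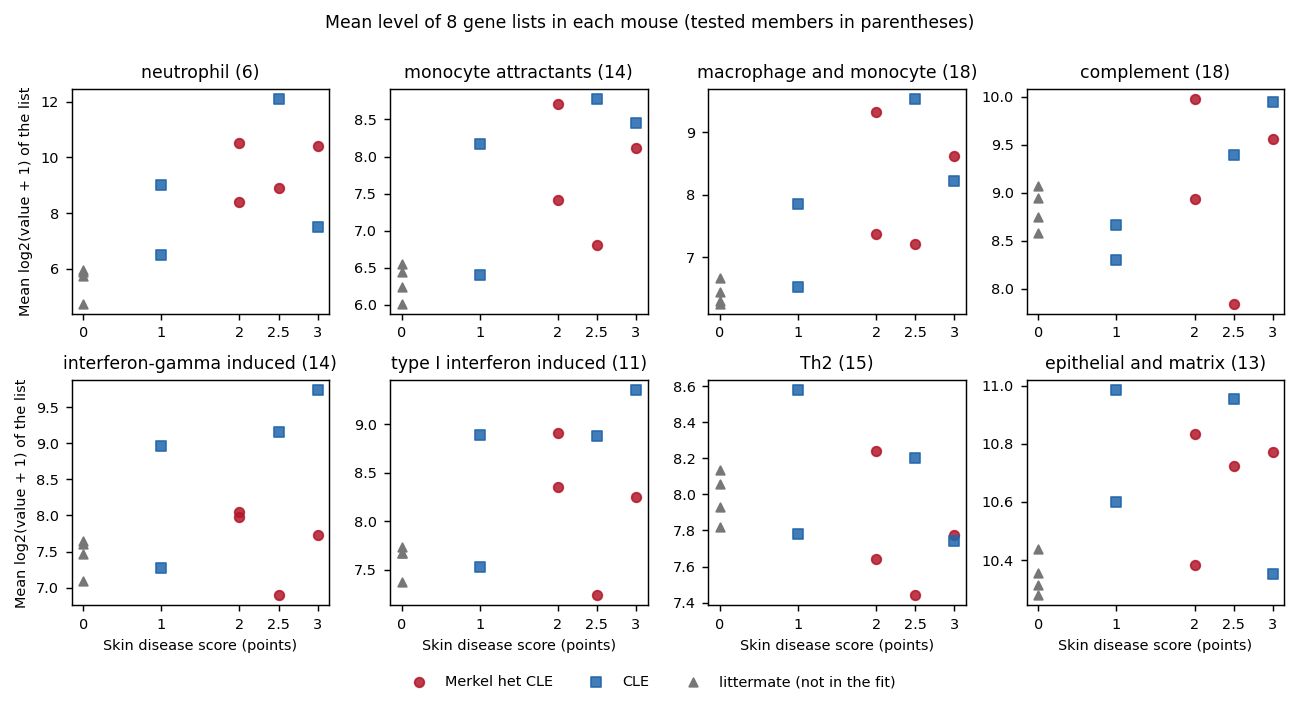
Mean log2(value + 1) over the tested members of 8 gene lists in each mouse, against the skin disease score in points. Circles are Merkel het CLE, squares CLE and triangles littermates. The neutrophil level of CLE is highest at score 2.5 and lower at score 3, and the interferon-gamma induced level of the Merkel het CLE mice does not increase with their score.

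S100a8 and S100a9, the paired calcium-binding alarmins, had no common order by score. S100a8 read 6581, 24557, 9149 and 38203 units in Merkel het CLE, and 6725, 1011, 139994 and 615 units in CLE. The highest and the lowest value of the 8 both came from higher-scored CLE mice. The slope was 0.56 ± 1.16 log2 per point, with a 95% interval of -2.12 to 3.24 and a limma adjusted p of 0.918. It was -0.55 without CLE 1, -0.17 without CLE 3 and 3.05 without CLE 4. S100a9 read 2970, 23527, 5753 and 21736 units in Merkel het CLE, and 3945, 331, 93820 and 422 units in CLE (slope 0.81 ± 1.24, adjusted p 0.906). Littermates read 60.5 to 317 units of S100a8, below all 8 diseased mice.

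Cxcl9 and Cxcl10, the interferon-induced ligands of Cxcr3, had positive slopes in CLE and negative ones in Merkel het CLE. Cxcl9 read 350.5, 263, 88.7 and 155 units in Merkel het CLE, and 1548, 74.0, 1585 and 6848 units in CLE. The mouse with the least S100a8, CLE 4, had the most Cxcl9. Within CLE the slope was 1.96 ± 0.76 and within Merkel het CLE -1.20 ± 1.63, a difference of -3.16 ± 1.79 that did not pass the test (limma adjusted p 0.995). With a common slope the value was 1.40 ± 0.76 (adjusted p 0.718), and 0.34 without CLE 3. Cxcl10 read 302, 301, 112 and 145 units in Merkel het CLE, and 2439, 131, 2569 and 3833 units in CLE, with a common slope of 0.94 ± 0.67 (adjusted p 0.764) and -0.092 without CLE 3. CLE 2 and CLE 3 share a score of 1, and their Cxcl10 values of 2439 and 131 units differed more than those of CLE 1 and CLE 4.

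**Figure D4:**
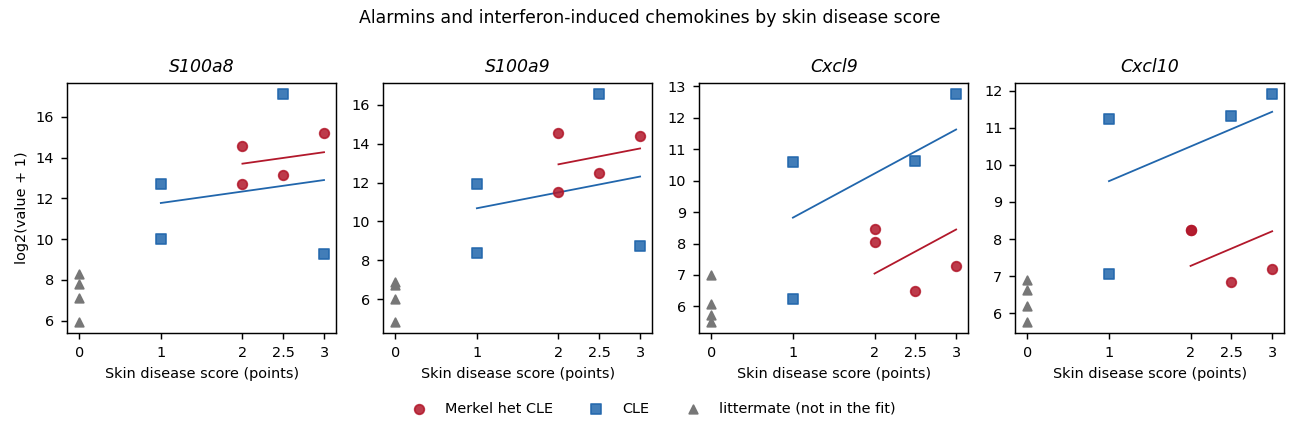
Log2(value + 1) of S100a8, S100a9, Cxcl9 and Cxcl10 against the skin disease score in points, 1 point per mouse. Lines show the common slope through each group's mean in Merkel het CLE (circles) and CLE (squares); triangles are littermates. The CLE mouse of score 3 has the lowest S100a8 and the highest Cxcl9 of the 8 diseased mice.

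The interferon lists had negative median slopes within Merkel het CLE and positive ones within CLE, as Cxcl9 and Cxcl10 did, and the difference between the groups was tested per gene only. Interferon-gamma induced genes had a median slope of -0.47 within Merkel het CLE and 0.65 within CLE, and type I interferon induced genes had -0.86 and 0.54. The mean level of the interferon-gamma list was 8.05, 7.98, 6.90 and 7.72 in Merkel het CLE, and 8.96, 7.28, 9.16 and 9.73 in CLE. Members of the 2 lists include Icam1 (slope 0.54 ± 0.25), which lets leukocytes adhere, the Fc receptor Fcgr1 (0.93 ± 0.54), and the transcription factor Irf1 (0.53 ± 0.33). The membrane protein Ifitm1 had a slope of 1.13 ± 0.74, with 3497 units in CLE 1 and 116 to 1278 units in the other 7 mice. Without CLE 3 the interferon-gamma list had a median slope of 0.10 with 10 of 14 positive, and without CLE 4 one of 0.30 with 12 of 14. The type I list had 0.02 with 6 of 11 positive without CLE 3, and -0.08 with 4 of 11 without CLE 4.

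The members of the Th2 and Th1 lists did not share 1 order by score, though Il12rb2, Il18r1 and Ccl22 lay lower in the higher-scored mice of both groups. In the Th2 list the members with the smallest p were Gata3 and Ccr4, given above, followed by Il33 and Ccl22. The epithelial alarmin Il33 read 537, 1402, 251 and 987 units in Merkel het CLE, and 580, 515, 222 and 186 units in CLE (slope -0.69 ± 0.39). Its CLE values kept the reverse order of the score classes, while the Merkel het CLE values did not. The median of the Th2 list was -0.02 without CLE 2, -0.38 without CLE 3 and -0.03 without CLE 4. The Th1 list had a median of 0.20, which turned negative after median centring. It was -0.03 without CLE 1 (4 of 8 positive), 0.01 without CLE 3 and 0.55 without CLE 4. Besides Il12rb2 and Il18r1 it holds Il18rap, the second chain of the interleukin 18 receptor, at 0.57 ± 0.36, and Il27 at 0.32 ± 0.30.

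The slopes within the groups can be set side by side. Of 451 genes, 219 (48.6%) had the same sign of slope in Merkel het CLE and in CLE. Within Merkel het CLE, 0 genes passed the limma test and 2 had an unadjusted p under 0.05 (0.443%), Lif at 2.71 ± 0.88 and Il6 at 3.24 ± 1.35, Il6 being named after its values were seen; within CLE, 0 passed and 22 did (4.88%), among them Il6ra at -0.93 ± 0.20 and Ikzf2 at -1.05 ± 0.27. The count within CLE was 47 without CLE 2, 34 of them positive, and 48 without CLE 4, 43 of them positive; it was 38 without Merkel het CLE 1 and 36 without Merkel het CLE 4, which change only the spread of that fit. Within Merkel het CLE it was 19 without Merkel het CLE 1, 17 of them negative, and the median slope there was -0.92, against 0.06 with all 4 mice. Without Merkel het CLE 1 the scores left in that group are 2, 2 and 2.5. Slopes there, and differences of slopes without that mouse, thus rest on Merkel het CLE 4 alone. Without CLE 4 the scores left in CLE are 1, 1 and 2.5, so slopes within CLE then rest on CLE 1 alone. With scores from 2 to 3 only, the median 95% half-width in Merkel het CLE was 1.81 log2 per point, against 0.84 in CLE. The difference of slopes, Merkel het CLE minus CLE, passed in 0 genes, with 3 at an unadjusted p under 0.05 (0.665%). Without Merkel het CLE 1 it was 27 genes, 25 of them negative, with a median difference of -1.02, against -0.11 with all 8 mice, and 0 passed (smallest limma adjusted p 0.219). Without CLE 4 it was 12 genes, all negative, and without Merkel het CLE 3 the median difference was 0.17. With all 8 mice the 3 genes were Klrk1, an activating receptor of NK and cytotoxic T cells, at -2.04 ± 0.70, Lif, a cytokine of the interleukin 6 family, at 2.52 ± 0.98, and Lair1, an inhibitory collagen receptor, at -2.19 ± 0.89 (limma adjusted p 0.995 for each). Lif read 69.5, 63.6, 78.7 and 514 units in Merkel het CLE, and 76.5, 40.5, 122 and 52.2 units in CLE, so its slope in Merkel het CLE came from 1 mouse. The lectin Itln1, next in order, was at -1.46 ± 0.62 but was above background in 2 of 4 Merkel het CLE and 0 of 4 CLE mice.

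**Figure D5:**
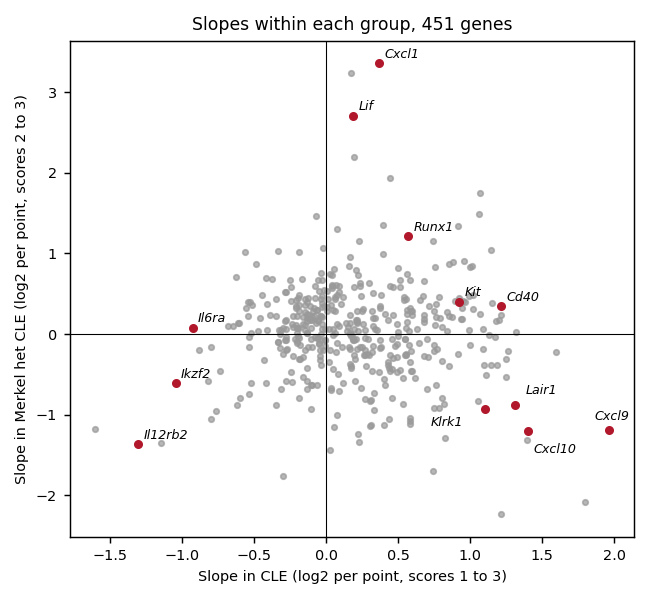
Slope with the score within Merkel het CLE (vertical axis) against that within CLE (horizontal axis), in log2 units per score point, for the 451 tested genes. The labelled red points are 12 of the genes named in the text. Cxcl9, Cxcl10, Klrk1 and Lair1 lie at positive CLE and negative Merkel het CLE slopes, and Cxcl1 and Lif at high Merkel het CLE slopes.

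Mice of equal score were compared over all genes, as a description. The median absolute log2 difference over the 451 genes was 0.464 between Merkel het CLE 2 and 3, both of score 2, and ran from 0.355 to 0.745 between the other Merkel het CLE pairs. Between CLE 2 and 3, both of score 1, it was 0.771, with 42 genes more than 2 log2 units apart, and it ran from 0.575 to 1.00 between the other CLE pairs. Across the groups it was 0.459 between Merkel het CLE 1 and CLE 4, both of score 3, and 1.11 between Merkel het CLE 4 and CLE 1, both of score 2.5. Against the littermate mean it was 0.433, 0.694, 0.634 and 0.698 in Merkel het CLE, and 0.737, 0.273, 0.951 and 0.684 in CLE. CLE 3 was thus the mouse nearest to the littermates, and CLE 2, with the same score of 1, lay farther from them than CLE 4 with a score of 3.

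No gene passed for a group difference at equal score. Merkel het CLE against CLE at equal score passed in 0 of 451 genes by limma (smallest adjusted p 0.215), with 48 at an unadjusted p under 0.05 (10.6%), of which 47 were lower in Merkel het CLE. After median centring it was 26 of 32, and after quantile normalization 22 of 31. Without the score term 0 passed (smallest adjusted p 0.0805) and 56 had an unadjusted p under 0.05 (12.4%). The smallest p at equal score belonged to Prf1, the pore-forming protein of cytotoxic cells (-1.94 ± 0.36), Pdcd1lg2, a ligand of the PD-1 receptor (-2.13 ± 0.44), Gzma, a granule protease (-2.90 ± 0.61), and Il27, a cytokine of antigen-presenting cells (-1.99 ± 0.44). The slopes of these 4 genes with the score lay between -0.05 and 0.52. Gzma read 45.0, 35.2, 15.6 and 24.3 units in Merkel het CLE, and 193, 57.3, 322 and 285 units in CLE, without overlap between the groups. Prf1 and Il27 were above background in 0 of 4 Merkel het CLE mice. Pdcd1lg2 lay near background in CLE 3, at 36.3 units against a threshold of 33.8 units, and the threshold of CLE 1 was 106 units. The scaled negative controls averaged 9.66 to 15.2 units in Merkel het CLE libraries and 11.0 to 62.6 units in CLE libraries. How far this higher background in CLE enters the difference of low genes was not tested. Without CLE 3, 3 genes were lower in Merkel het CLE at equal score by limma: Cxcl10 with -3.85 (adjusted p 0.0349), Gzma with -3.19 and Pdcd1lg2 with -2.33 (adjusted p 0.0494 for both). Since the range of scores differs between the groups, the score and the group are in part confounded in this fit. TLR9 genotype and strain are tied to the group as well. Merkel het CLE 1 and 2 are TLR9 wt/wt, while all CLE mice are ko/ko and of the parental strain.

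Mice that share a title number offered a comparison within a number. Merkel het CLE 1 minus 2 spans scores 3 and 2, and CLE 4 minus 3 spans scores 3 and 1. Both differences were positive in 188 genes and both negative in 76, which is the same sign in 264 of 451 (58.5%). Fitted as a random block (consensus correlation 0.455), the title number left 0 of 451 genes past the limma threshold for a slope with the score. With the block, 68 of 451 had an unadjusted p under 0.05, 51 positive and 17 negative, against 20 (4.43%) without it. The correlation rests only on the pairs named here, whose mice also differ in score.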

How the data were processed

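Skin libraries of 12 mice were deposited as 1 table with 561 gene probes, 6 positive controls and 8 negative controls. The deposited signal of a gene probe is a barcode count multiplied by 1 factor per lane, with a floor of 1, as the steps between values show; control values are unscaled counts. The sources used here do not name that factor. Counts recovered by dividing by the step served only for depth and background. Genes were tested where at least 4 of 12 libraries gave a count above the negative control mean of the lane plus 2 SD. This left 451 genes, of which 314 were above background in all 8 diseased libraries; 98 were below background and 12 reference genes were not tested. Symbols were found for 549 probes in the reference table. Folds are on the log2(value + 1) scale with no background taken off, which can understate differences of low genes. It can also make low genes differ between libraries through the lane factor alone. The scaled negative controls averaged 9.66 to 62.6 units in the diseased libraries.

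Slopes were fitted with limma 3.58.1 (R 4.3.3) on 8 libraries with group and score as terms and a variance trend (5 residual degrees of freedom), adjusted by Benjamini-Hochberg over all tested genes; ± after a slope or difference is a moderated standard error. Group-specific slopes used 1 further term. Exact permutations moved scores within groups. The code was tested on simulated data. Tables used pandas 2.3.3 and numpy 2.4.6 under Python 3.11.15, and figures matplotlib 3.10.9.

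The members, lists and tests were chosen with earlier results of these data known. Genes named are S100a8, S100a9, Cxcl9 and Cxcl10, the 12 smallest p in each direction of slope, up to 4 smallest p of each list described, and the 4 smallest p for the difference of slopes and for the group difference. Some of these genes are not reported here. The 33 gene lists cover immune cell types, cytokines, chemokines, interferon responses, antigen presentation, complement, signalling, adhesion and epithelium. Replicate numbers are in accession order. The spread behind each p-value is that between mice, and some mice share a title number. Alternatives covered scaling, filters, the pseudocount, background, variance models, score coding, covariates, a title block and leaving out libraries.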

Additional observations from a re-analysis of the deposited data

Results flagged for a closer look

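Among 72 combinations of a named gene and a group, 5 held a mouse far from the other 3 of its group; chance flags about 1 in 20. Cxcl10 was 131 units in CLE 3, against 2439 to 3833 in the other CLE mice. Pdcd1lg2 was 36.3 units in CLE 3, against 91.3 to 106 in the others. Gata3 was 1329 units in Merkel het CLE 1, against 2011 to 2170 in the other Merkel het CLE mice. Lif was 514 units in Merkel het CLE 1, against 63.6 to 78.7. Itln1 was 8.59 units in the same mouse, against 21.9 to 23.5, values at or near background.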

How the results depend on the processing

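In each of 30 alternatives, 0 genes passed for a slope with the score; the smallest adjusted p ran from 0.0855 (littermates kept as a group of their own) to 0.999 (2 higher-scored against 2 lower-scored mice), and 11 to 93 genes had an unadjusted p under 0.05, 93 with the 2 pairs that share a title number alone. Apart from S100a8, S100a9, Cxcl9 and Cxcl10, the 28 genes followed were picked for a small p of their slope in these same mice. A kept sign is favoured by that choice. The sign was kept throughout in 25 of the 28, and of the genes not picked that way only in Cxcl9. The exceptions were S100a8, with slopes of -0.55 without CLE 1 and -0.17 without CLE 3, S100a9, with -0.33 and -0.13, and Cxcl10, with -0.092 without CLE 3; the cause was not tested. Without 1 library the slope of S100a8 ran from -0.55 to 3.05, that of S100a9 from -0.33 to 3.27, and that of Cxcl10 from -0.092 to 1.63. The number of genes lower in Merkel het CLE at equal score was 0, and ran from 0 to 3 without 1 library, with 3 without CLE 3. Without 1 library, the genes at an unadjusted p under 0.05 numbered 1 to 19 within Merkel het CLE, 15 to 48 within CLE, and 1 to 27 for the difference of slopes, with 0 past the threshold in each. Leaving out Merkel het CLE 1 and 3, the pairs of a shared title number, the list medians by scaling and library, and the littermate level over genes filtered on diseased mice were added after the data were seen. No paired analysis was possible because the labels give no replicate numbers that join a Merkel het CLE mouse to a CLE mouse; the title numbers shared by diseased mice lie within a group, and were used only as a block and for the differences within a number. A planned test on recovered counts was not run, since the deposited gene values are scaled signals. Genes near background, above all in CLE 1, limit what can be read.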
